A study of Mus musculus with 8 samples.

Results

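Tumors treated with rapamycin alone were compared with tumors treated with loratadine alone, 2 libraries against 2, by their bulk RNA. All 8 tumors of the series grew from 105K cells, a Tsc2-deficient line derived from a mouse kidney tumor, which were engrafted with Matrigel under the skin of age-matched, immunocompetent female C57BL/6J mice as a model of lymphangioleiomyomatosis (LAM), a lung disease caused by loss of the TSC complex. The rapamycin tumors, D1L and G3L, came from mice given rapamycin at 0.25 mg/kg/day into the peritoneum. The loratadine tumors, B3R and F3R, came from mice given loratadine at 25 mg/kg/day, by mouth in the study's methods and into the peritoneum in the labels. The series also holds 2 tumors with both drugs (A3L and C1R) and 2 with the carboxymethylcellulose vehicle (B1L and F5L), which entered the model to estimate the spread. Of 35539 genes listed, 15095 had at least 1 TPM (a transcript's length-scaled share of all transcripts) in at least 2 of the 8 tumors and were tested. The tumor codes, read with the column names of the study's source data, give the cage, the animal and the side, and no 2 tumors share an animal. D1L and G3L were left-side tumors of cages D and G, while B3R and F3R were right-side tumors of cages B and F, so drug, side and cage cannot be told apart in these 4 tumors. The vehicle tumors B1L and F5L came from cages B and F, like the loratadine tumors and unlike the rapamycin tumors, so the nearness of loratadine to vehicle values cannot be told apart from a shared cage. The methods also give a larger starting volume and another dosing schedule for the rapamycin arm, and the labels call the tissue a mammary tumor.

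Rapamycin binds the protein FKBP12 (the product of Fkbp1a) and inhibits mTORC1, the kinase complex that the TSC complex holds in check and that drives protein, lipid and nucleotide synthesis and cell growth in cells that have lost TSC2. Loratadine is an antihistamine that blocks the histamine H1 receptor. Rapamycin is in clinical use for LAM, and the study examined loratadine as a further agent. The comparison asks how the transcriptomes under the 2 single agents differ.

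The listed TPM summed to between 993546 and 994645 in each tumor, and since TPM holds no information on sequencing depth, that depth is unknown. The 2 rapamycin tumors were less alike than the 2 loratadine tumors, with a Pearson correlation across genes of log2(TPM + 1) of 0.93 for D1L and G3L and 0.97 for B3R and F3R. Among genes with at least 5 TPM in one of the pair, 1524 lay at least 2-fold apart on the log2(TPM + 1) scale between D1L and G3L, and 722 between B3R and F3R. Tsc2, the gene lost in the engrafted cells, was listed at 78.1 and 58.4 TPM in the rapamycin tumors and 52.7 and 53.8 TPM in the loratadine tumors (log2 fold change 0.34, limma adjusted p = 0.436). What part of these reads came from host cells or from what remains of the gene in 105K cells was not tested.

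No gene passed the test at an adjusted p under 0.05 (0.0% of 15095, with limma on log2(TPM + 1) and Benjamini-Hochberg adjustment), and the smallest adjusted p was 0.0673. At an unadjusted p under 0.05 there were 2831 genes, which is 18.8% of those tested, with 1257 higher (8.33%) and 1574 lower (10.4%) in the rapamycin tumors. At an adjusted p under 0.1 there were 168 genes (1.11%), of which 35 were higher (0.232%) and 133 lower (0.881%) with rapamycin. The arms did not overlap for any of these 168, against 24.4% of all genes tested with both rapamycin tumors higher and 23.8% with both lower. The median log2 fold change over all genes was 0.01. These shares and this median are the background for the list counts below. Fold changes below are on the log2(TPM + 1) scale, rapamycin minus loratadine, which understates the change of genes with low TPM. Most genes named below were taken by rule, as the genes with the smallest p, the most abundant members of each list or genes the study names, and the other members were chosen after their values were seen.

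Of the genes with the smallest p, 4 that lay lower with rapamycin are described first. Asns, which encodes asparagine synthetase (ENSMUSG00000029752, chromosome 6 from 7625169 to 7643254 of the mm9 build, NCBIM37), was at 33.8 and 31.6 TPM in the rapamycin tumors and at 103 TPM in both loratadine tumors, while the vehicle tumors held 260 and 243 TPM. Its 2 arms were each tight and far apart, and the log2 fold change was -1.63 (standard error 0.15, 95% interval -1.98 to -1.27, limma adjusted p = 0.0673). Cenpu, a component of the inner kinetochore (chromosome 8 from 47637409 to 47665361), was at 1.68 and 1.22 TPM with rapamycin and at 15.5 and 17.6 TPM with loratadine, a log2 fold change of -2.84 (standard error 0.29, limma adjusted p = 0.0673). Insig1, which retains the sterol sensor complex in the endoplasmic reticulum (chromosome 5 from 28397952 to 28405201), was at 17.8 and 30.5 TPM with rapamycin and at 196 and 161 TPM with loratadine (log2 fold change -2.88, standard error 0.34, limma adjusted p = 0.0747). The loratadine tumors were here also above the vehicle tumors, which held 63.5 and 88.2 TPM. Vps35, the core of the retromer that recycles receptors from endosomes (chromosome 8 from 87784296 to 87823412), was at 65.9 and 66.6 TPM with rapamycin and at 147 and 168 TPM with loratadine (log2 fold change -1.23, standard error 0.16, limma adjusted p = 0.0747).

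The 5 genes of smallest p in the other direction lay higher with rapamycin. Aoc1, the diamine oxidase that degrades extracellular histamine (ENSMUSG00000029811, chromosome 6 from 48845253 to 48859187 in NCBIM37), was at 39.6 and 39.4 TPM in the rapamycin tumors and at 1.33 and 0.0813 TPM in the loratadine tumors. Its log2 fold change was 4.68 (standard error 0.46, 95% interval 3.59 to 5.76, limma adjusted p = 0.0673), and tumors with both drugs held 17.5 and 14.4 TPM while vehicle tumors held 1.12 and 0.0598 TPM. The 4 tumors given rapamycin thus all held more Aoc1 than the 4 without it. Chrdl2, a secreted antagonist of bone morphogenetic proteins (chromosome 7 from 107154914 to 107183238), was at 10.2 and 12.8 TPM with rapamycin and at 0.385 and 0.676 TPM with loratadine (log2 fold change 3.03, standard error 0.35, limma adjusted p = 0.0747). Rasl11a, a small GTPase of the Ras family (chromosome 5 from 147656647 to 147659302), was at 102 and 83.9 TPM with rapamycin and at 26.7 and 29.1 TPM with loratadine (log2 fold change 1.69, standard error 0.20, limma adjusted p = 0.0747). In Rasl11a and in Pth1r the loratadine tumors also lay above the vehicle tumors. Pth1r, the receptor of parathyroid hormone (chromosome 9 from 110624592 to 110649649), was at 29.5 and 20.2 TPM with rapamycin, at 4.66 and 3.85 TPM with loratadine and at 0.567 and 1.05 TPM with vehicle (log2 fold change 2.28, standard error 0.29, limma adjusted p = 0.0747). Ypel4, a member of a small conserved family of nuclear proteins (chromosome 2 from 84574215 to 84578812), was at 10.7 and 8.08 TPM with rapamycin and at 1.26 and 1.6 TPM with loratadine (log2 fold change 2.09, standard error 0.28, limma adjusted p = 0.0747).

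**Figure D1:**
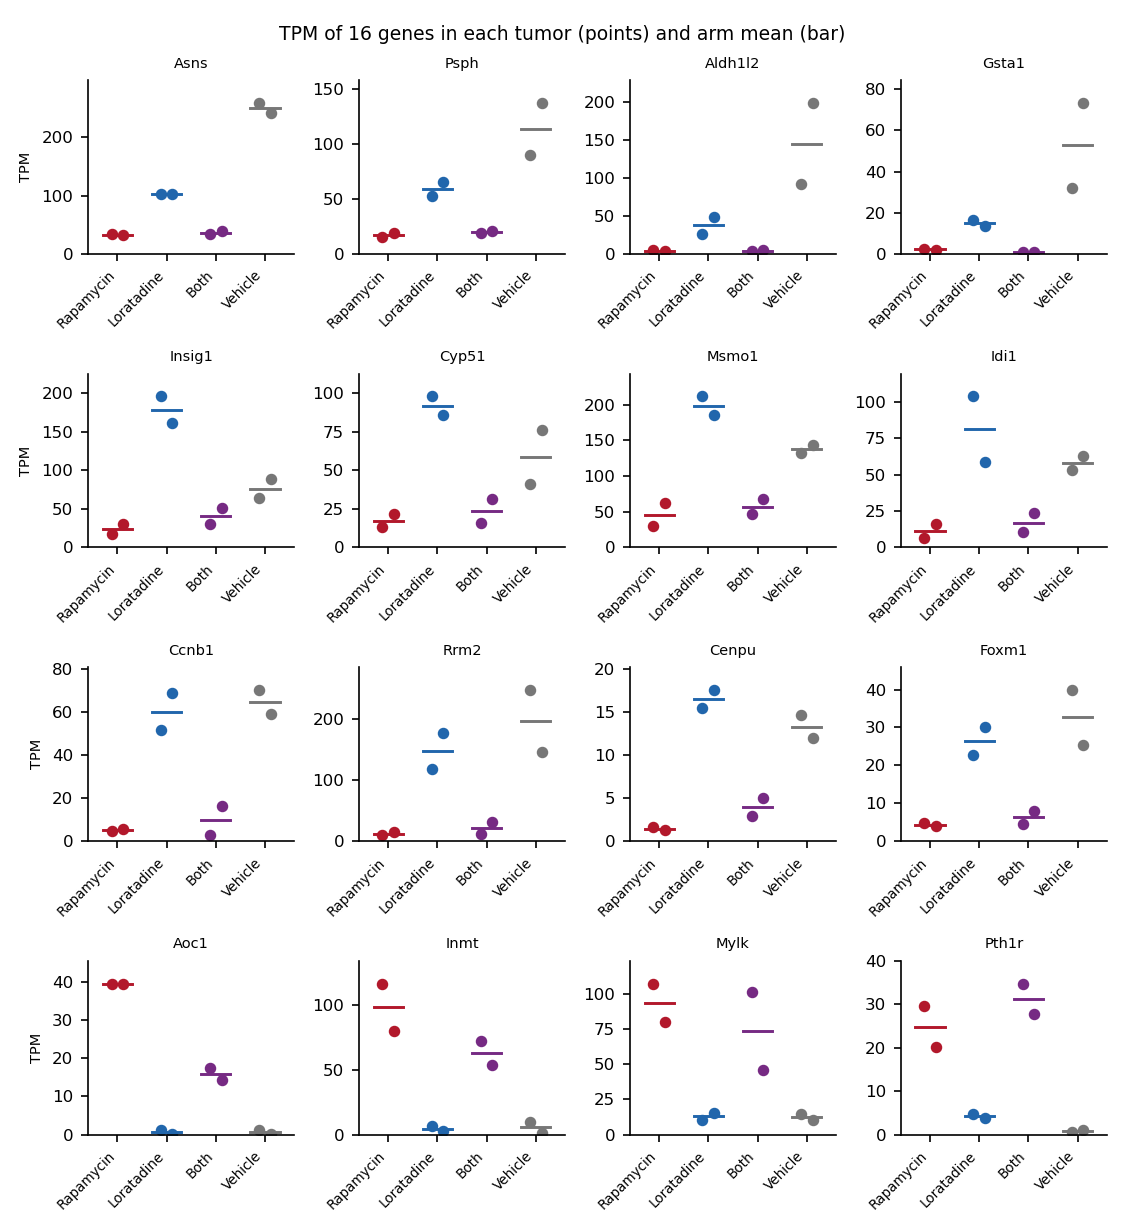
TPM of 16 genes by treatment, with a point for each tumor and a bar for the mean of its arm (2 tumors per arm, linear axes from 0). The rapamycin and loratadine points do not overlap in any panel: in the top 3 rows the rapamycin tumors are the lower ones (Asns 33.8 and 31.6 TPM against 103 TPM in both loratadine tumors), and in the bottom row they are the higher ones (Aoc1 39.6 and 39.4 against 1.33 and 0.0813 TPM).

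Mitosis genes had the largest median of the 58 gene lists examined. Progress through mitosis needs cyclins A and B with the kinase Cdk1, the Aurora and Polo kinases, the spindle motors and the checkpoint proteins, and FoxM1 is among the transcription factors of these genes. All 28 genes of the list were lower with rapamycin, all 28 at an unadjusted p under 0.05 (against 10.4% of all genes), 5 at an adjusted p under 0.1 and 0 at an adjusted p under 0.05, with a median log2 fold change of -2.68 beside 0.01 over all genes. Among the regulators, Foxm1 was at 4.74 and 3.88 TPM with rapamycin and at 22.7 and 30.0 TPM with loratadine (log2 fold change -2.36, limma adjusted p = 0.0747). Ccnb1, cyclin B1, was at 4.53 and 5.65 TPM with rapamycin and at 52.0 and 68.8 TPM with loratadine (log2 fold change -3.33, standard error 0.62, limma adjusted p = 0.0975). Its kinase partner Cdk1, the most abundant member of the list, was at 30.5 and 24.2 TPM with rapamycin and at 132 and 186 TPM with loratadine (limma adjusted p = 0.139). The checkpoint kinase Bub1 was at 1.69 and 1.99 TPM with rapamycin and at 16.7 and 26.1 TPM with loratadine (log2 fold change -2.95, limma adjusted p = 0.0747). For the spindle motor Kif11 the values were 1.33 and 1.41 TPM with rapamycin and 9.10 and 17.1 TPM with loratadine (log2 fold change -2.51, limma adjusted p = 0.0958). Mki67, which encodes the proliferation antigen Ki-67, was at 3.93 and 4.6 TPM with rapamycin and at 29.7 and 54.6 TPM with loratadine (log2 fold change -2.97, limma adjusted p = 0.107). In every one of these genes the lowest loratadine tumor was above the highest rapamycin tumor. As the mean of log2(TPM + 1), the list stood at 2.54 and 2.84 in the rapamycin tumors, 5.04 and 5.68 in the loratadine tumors and 5.13 and 5.18 in the vehicle tumors, while the tumors with both drugs differed from each other, at 2.21 in A3L and 4.06 in C1R. With tumor side added to the model the median was -0.89 and 3 of 28 had an unadjusted p under 0.05. Over all 15095 genes tested, 350 had an unadjusted p under 0.05 with this term and 2831 without it. Side varied only within the arm with both drugs, so here and below this term rests on C1R against A3L. With the mean of the adipocyte markers as a term, a mean that itself differed between the arms, 25 of the 28 passed at an adjusted p under 0.05.

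Promoters of mitosis genes are known for CCAAT boxes, bound by NF-Y, and for the CHR element, bound by complexes that include FoxM1. The promoters of 3 list members and of Cenpu are shown because these genes have the element and lay at an adjusted p under 0.1. They are the 250 bases before the gene start from RefSeq, in build GRCm38.p6, with capitals marking each CCAAT on either strand and, for Kif11, also the CHR letters TTTGAA, which lie on the opposite strand there.
Ccnb1 (chr13:100786487-100786736, minus strand): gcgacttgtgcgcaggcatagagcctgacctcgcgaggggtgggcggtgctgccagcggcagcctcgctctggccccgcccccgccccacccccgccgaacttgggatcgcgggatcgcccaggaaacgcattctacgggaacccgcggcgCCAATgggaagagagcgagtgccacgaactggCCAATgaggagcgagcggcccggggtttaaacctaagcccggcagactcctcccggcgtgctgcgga
Bub1 (chr2:127831860-127832109, minus strand): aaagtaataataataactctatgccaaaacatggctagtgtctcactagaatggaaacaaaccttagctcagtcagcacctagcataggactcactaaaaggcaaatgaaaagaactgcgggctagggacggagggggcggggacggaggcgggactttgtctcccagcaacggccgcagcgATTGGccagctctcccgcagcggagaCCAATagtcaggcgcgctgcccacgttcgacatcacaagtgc
Kif11 (chr19:37376132-37376381, plus strand): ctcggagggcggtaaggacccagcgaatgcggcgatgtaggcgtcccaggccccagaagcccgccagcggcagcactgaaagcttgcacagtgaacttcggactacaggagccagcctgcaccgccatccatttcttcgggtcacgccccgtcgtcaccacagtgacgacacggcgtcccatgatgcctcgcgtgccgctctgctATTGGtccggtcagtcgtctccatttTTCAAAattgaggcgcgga
Cenpu (chr8:46551819-46552068, plus strand): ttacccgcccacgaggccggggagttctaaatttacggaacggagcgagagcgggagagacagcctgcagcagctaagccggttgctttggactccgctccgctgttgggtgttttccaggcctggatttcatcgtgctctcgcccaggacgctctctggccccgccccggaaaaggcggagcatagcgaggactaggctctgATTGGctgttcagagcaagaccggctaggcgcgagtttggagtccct
Ccnb1 held a CCAAT at 99 and at 67 bases before its start, Bub1 at 68 and 42, Kif11 at 45 and Cenpu at 47. Of the 28 list members, 23 matched the RefSeq table, with 24 promoter windows. CCAAT was in 21 of the 24 windows (87.5%), against 33.8% of all 32851 windows of the same length. TTTGAA was in 8 (33.3%, against 16% of all windows) and its variant TTCGAA in 2 (8.33%, against 1.34%). Both strands were searched, and a match describes letters only.

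Genes of DNA replication and the S phase, which load and fire origins and supply deoxynucleotides, lay lower as well. Of 30 tested, 29 were lower with rapamycin, 26 of them at an unadjusted p under 0.05 (against 10.4% of all genes). At an adjusted p under 0.1, 4 were lower (against 0.881%), and the median log2 fold change was -1.38. Rrm2, the small subunit of ribonucleotide reductase, was at 9.22 and 15.1 TPM with rapamycin and at 118 and 176 TPM with loratadine (log2 fold change -3.50, standard error 0.50, limma adjusted p = 0.0747). Its partner Rrm1 was at 16.8 and 26.5 TPM with rapamycin and at 66.8 and 107 TPM with loratadine (log2 fold change -1.95, limma adjusted p = 0.0958). The other replication genes at an adjusted p under 0.1 were Mcm5, a subunit of the replicative helicase (-2.33), and Ccne1, cyclin E1 (-1.93). Pcna, the sliding clamp, was at 71.3 and 101 TPM with rapamycin and at 179 and 296 TPM with loratadine (log2 fold change -1.43, limma adjusted p = 0.11). The exception was Cdc45, a helicase cofactor, at 27.9 and 101 TPM with rapamycin and at 38.1 and 30.2 TPM with loratadine, where G3L alone was high. Of the 30 windows of 24 matched genes, 4 (13.3%) held the E2F letters TTTCGCGC, against 0.256% of all windows, and 3 (10%) held the variant TTTGGCGC, against 0.417%. With the side term 1 of the 30 had an unadjusted p under 0.05 (against 350 of 15095 genes), with a median of -0.83.

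Sterol synthesis genes were the list with most members at the looser threshold. Cells make cholesterol from acetyl-CoA through mevalonate, squalene and lanosterol, and the transcription factor SREBP-2 (Srebf2) drives these genes when sterols are low, with Insig1 as a brake on its processing and a target of it. All 24 genes were lower with rapamycin and in all 24 the arms did not overlap, against 23.8% of all genes with both rapamycin tumors lower. At an unadjusted p under 0.05 there were 22 (against 10.4% of all genes) and at an adjusted p under 0.1 there were 10 (against 0.881%). The median log2 fold change was -1.72. Early in the pathway, Hmgcs1, which makes HMG-CoA, was at 82.6 and 47.6 TPM with rapamycin and at 183 and 104 TPM with loratadine (log2 fold change -1.12, limma adjusted p = 0.164). Idi1, which isomerizes the isoprenoid unit, was at 6.13 and 15.8 TPM with rapamycin and at 104 and 58.5 TPM with loratadine (log2 fold change -2.85, standard error 0.52, limma adjusted p = 0.0958). Fdps, the farnesyl diphosphate synthase and the most abundant member, was at 50.9 and 146 TPM with rapamycin and at 487 and 350 TPM with loratadine (log2 fold change -2.24, limma adjusted p = 0.116). The rapamycin tumors thus differed among themselves in Idi1 and Fdps, with G3L the higher, but stayed below both loratadine tumors. After squalene, Lss, the lanosterol synthase, was at 9.16 and 5.99 TPM with rapamycin and at 51.4 and 30.2 TPM with loratadine (log2 fold change -2.26, limma adjusted p = 0.0958). Cyp51, the lanosterol demethylase, was at 12.8 and 21.6 TPM with rapamycin and at 97.8 and 85.4 TPM with loratadine (log2 fold change -2.38, limma adjusted p = 0.0958). Msmo1, the next demethylase, was at 29.7 and 61.7 TPM with rapamycin, at 212 and 185 TPM with loratadine and at 132 and 144 TPM with vehicle (log2 fold change -2.18, limma adjusted p = 0.0937). Sc5d, Nsdhl, Mvd and Stard4, 3 enzymes and a cholesterol carrier, had log2 fold changes between -1.79 and -1.48 at adjusted p between 0.0747 and 0.0958. Ebp, the second most abundant member, was at 82.3 and 148 TPM with rapamycin and at 156 and 177 TPM with loratadine (log2 fold change -0.58, limma adjusted p = 0.441). Srebf2 itself was at 31.3 and 68.7 TPM with rapamycin and at 100 and 99.4 TPM with loratadine (log2 fold change -1.09, limma adjusted p = 0.193). As the mean of log2(TPM + 1), the list was at 3.87 and 4.41 with rapamycin, 5.99 and 5.69 with loratadine and 5.14 and 5.57 with vehicle, so the loratadine tumors were the highest of the 3 arms. With the side term 7 of the 24 had an unadjusted p under 0.05 (against 350 of 15095 genes) and the median was -1.25. Over the 23 alternative settings the median lay between -1.97 and -1.25.

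Only 1 window of the sterol list held the sterol response core TCACNCCAC, where N is any base, of 19 windows of 16 matched genes (5.26%, against 1.05% of all windows). It is shown with the core in capitals, 137 bases before the start, in GRCm38.p6.
Hmgcs1 (chr13:119690101-119690350, plus strand): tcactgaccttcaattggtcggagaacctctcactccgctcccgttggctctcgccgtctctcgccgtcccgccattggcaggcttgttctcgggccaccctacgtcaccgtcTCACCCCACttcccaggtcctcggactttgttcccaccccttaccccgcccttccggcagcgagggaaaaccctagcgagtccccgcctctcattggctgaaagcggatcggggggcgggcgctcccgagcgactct

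Fatty acid synthesis genes, are driven by SREBP-1 (Srebf1). Of 16 tested, 6 were lower at an unadjusted p under 0.05 (against 10.4% of all genes) and 0 higher. At an adjusted p under 0.1 there were 0, and the median was -0.72. Scd2, a stearoyl-CoA desaturase, was at 135 and 202 TPM with rapamycin and at 391 and 291 TPM with loratadine (log2 fold change -1.03, limma adjusted p = 0.123). Scd1 was at 178 and 126 TPM with rapamycin and at 367 and 250 TPM with loratadine (log2 fold change -1.01, limma adjusted p = 0.138). Srebf1 was at 80.6 and 65.9 TPM with rapamycin and at 75.0 and 62.5 TPM with loratadine (log2 fold change 0.09, limma adjusted p = 0.851). Several of these enzymes are also abundant in fat tissue, whose markers differed between the tumors.

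**Figure D2:**
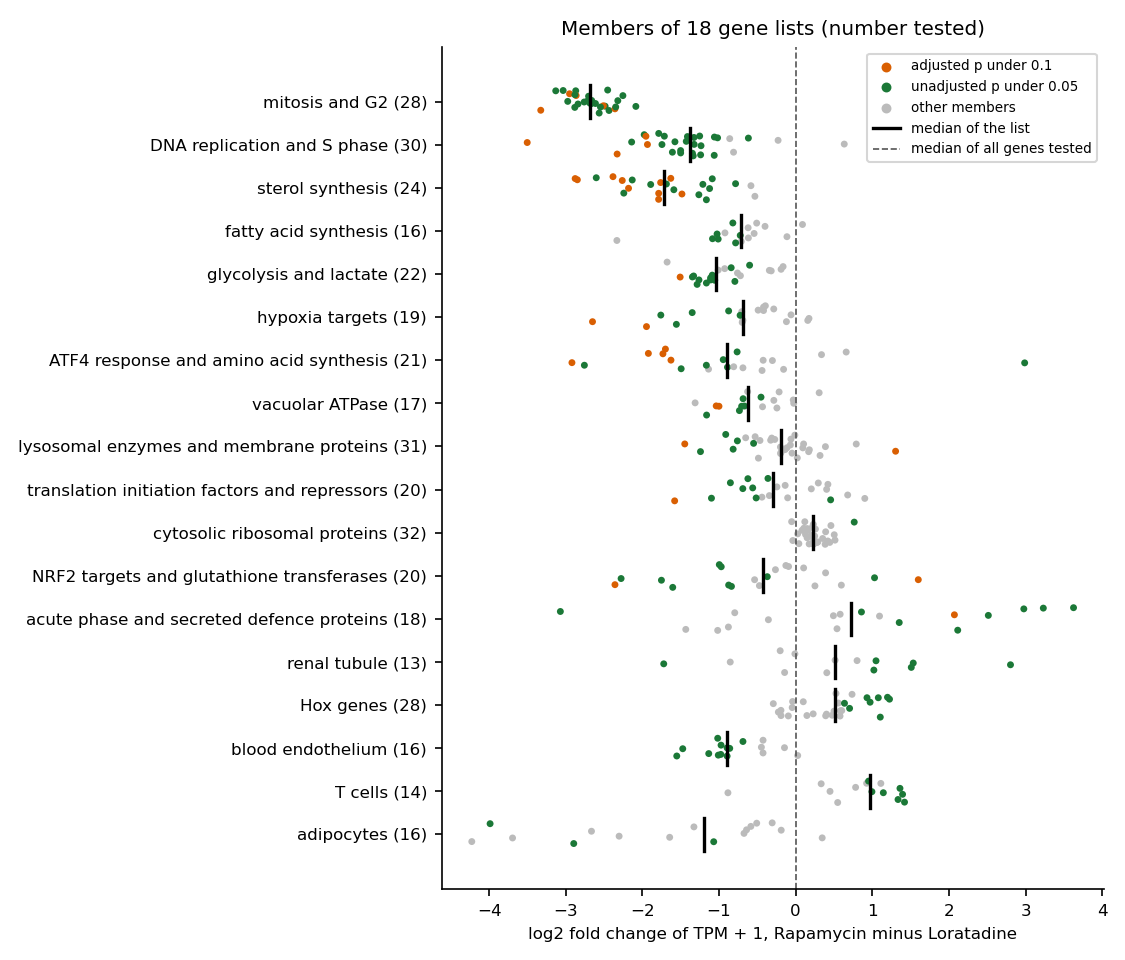
Log2 fold change of TPM + 1, rapamycin minus loratadine, for each tested member of 18 gene lists (points, number tested in brackets), with the list median as a black bar and the median of all genes as a dashed line. Mitosis and sterol synthesis lie wholly left of the dashed line (medians -2.68 and -1.72), while Hox genes and T cell markers lie mostly right of it (0.51 and 0.97).

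ATF4 is a transcription factor that mTORC1 and amino acid shortage induce and that drives serine, glycine and asparagine synthesis and mitochondrial one-carbon enzymes. Of 21 genes tested, 11 were lower with rapamycin at an unadjusted p under 0.05 (against 10.4% of all genes) and 1 was higher. At an adjusted p under 0.1, 5 were lower (against 0.881%), and the median log2 fold change was -0.89. In the serine pathway, Phgdh was at 30.1 and 42.6 TPM with rapamycin and at 119 and 162 TPM with loratadine (log2 fold change -1.92, limma adjusted p = 0.0958). Psph, its last step, was at 15.1 and 18.7 TPM with rapamycin, at 52.3 and 64.9 TPM with loratadine and at 89.6 and 137 TPM with vehicle (log2 fold change -1.73, standard error 0.25, limma adjusted p = 0.0747). Psat1, between them, was at 13.4 and 48.0 TPM with rapamycin and at 124 and 258 TPM with loratadine (log2 fold change -2.76, limma adjusted p = 0.119). The mitochondrial folate enzyme Aldh1l2 was at 4.72 and 3.10 TPM with rapamycin, at 26.3 and 48.2 TPM with loratadine and at 91.5 and 200 TPM with vehicle (log2 fold change -2.92, standard error 0.46, limma adjusted p = 0.0947). Mthfd1l, of the same pathway, had a log2 fold change of -1.70 (limma adjusted p = 0.0958). For Asns, Psph, Aldh1l2 and Mthfd1l the loratadine tumors thus stood between the rapamycin and the vehicle tumors, unlike the sterol genes Insig1, Cyp51 and Msmo1, where they stood above both; loratadine against vehicle was not tested here. The most abundant members did not share the shift: Nupr1, a stress protein, was at 257 and 1010 TPM with rapamycin and at 279 and 372 TPM with loratadine (log2 fold change 0.66, limma adjusted p = 0.585), and Atf4 itself was at 163 and 268 TPM with rapamycin and at 260 and 302 TPM with loratadine (log2 fold change -0.42, limma adjusted p = 0.475). Chac1, another stress target, was at 17.9 and 14.3 TPM with rapamycin and at 18.6 and 17.4 TPM with loratadine, and only Cbs, cystathionine beta-synthase, was higher at an unadjusted p under 0.05 (24.6 and 10.6 TPM with rapamycin, 2.89 and 0.206 TPM with loratadine). Outside the list, the aminoacyl-tRNA synthetase genes Aars and Sars, which supply charged tRNA and are known ATF4 targets, had log2 fold changes of -1.33 and -0.85 (limma adjusted p = 0.0747 and 0.0958). Both were chosen from the genes at an adjusted p under 0.1, and no list of synthetase genes was examined. As the mean of log2(TPM + 1), the list was at 4.67 and 4.90 with rapamycin, 5.52 and 5.75 with loratadine and 6.47 and 6.62 with vehicle. With the side term 4 of the 21 were lower at an unadjusted p under 0.05, with a median of -0.94. Over all genes, 350 of 15095 were at that p with this term, in either direction.

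ATF4 binds a composite of a C/EBP and an ATF element, here searched as TGATGNAA on both strands. It was in 7 of 23 windows of 20 matched list genes (30.4%, against 3.45% of all windows), among them Asns, whose promoter is shown with the match, 23 bases before the start, in capitals (GRCm38.p6).
Asns (chr6:7693210-7693459, minus strand): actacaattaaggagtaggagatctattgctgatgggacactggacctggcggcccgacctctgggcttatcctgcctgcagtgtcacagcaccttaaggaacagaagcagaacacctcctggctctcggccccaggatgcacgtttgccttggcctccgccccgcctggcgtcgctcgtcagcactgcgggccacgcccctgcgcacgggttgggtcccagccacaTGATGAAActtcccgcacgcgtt

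Glycolysis genes, targets of HIF-1 and of mTORC1, also lay lower with rapamycin, 13 of 22 at an unadjusted p under 0.05 (against 10.4% of all genes). At that p 0 were higher. At an adjusted p under 0.1, 1 was lower (against 0.881%), and the median was -1.03. Ldha, lactate dehydrogenase A, was at 420 and 557 TPM with rapamycin, at 1090 and 1750 TPM with loratadine and at 2120 and 1750 TPM with vehicle (log2 fold change -1.51, standard error 0.28, limma adjusted p = 0.0969). Gapdh, the most abundant member and a common normalizer, was at 1530 and 1540 TPM with rapamycin, at 2980 and 3680 TPM with loratadine and at 9520 and 5870 TPM with vehicle (log2 fold change -1.11, limma adjusted p = 0.13). Aldoa, an aldolase, was at 992 and 844 TPM with rapamycin and at 1640 and 1530 TPM with loratadine (log2 fold change -0.79, limma adjusted p = 0.121). Of the glucose transporters, Slc2a1 was at 51.5 and 50 TPM with rapamycin and at 101 and 168 TPM with loratadine (log2 fold change -1.35, limma adjusted p = 0.118). With the side term 4 of the 22 had an unadjusted p under 0.05 (against 350 of 15095 genes), with a median of -1.04.

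Of 19 hypoxia targets, 7 were lower at an unadjusted p under 0.05 (against 10.4% of all genes) and 0 higher. At an adjusted p under 0.1, 2 were lower (against 0.881%), and the median was -0.69. Egln3, an oxygen-sensing prolyl hydroxylase, was at 25.2 and 38.6 TPM with rapamycin and at 110 and 137 TPM with loratadine (log2 fold change -1.95, standard error 0.26, limma adjusted p = 0.0747). Adm, the vasodilator adrenomedullin, was at 7.69 and 11.7 TPM with rapamycin, at 41.5 and 101 TPM with loratadine and at 201 and 102 TPM with vehicle (log2 fold change -2.65, standard error 0.48, limma adjusted p = 0.0958). Bnip3, a mitophagy receptor, was at 93.9 and 71.3 TPM with rapamycin and at 171 and 344 TPM with loratadine (log2 fold change -1.56, limma adjusted p = 0.115). Other targets did not follow: Ndrg1 was at 264 and 254 TPM with rapamycin and at 226 and 350 TPM with loratadine (log2 fold change -0.12, limma adjusted p = 0.886), and Car9 was below 3 TPM in both arms. Over the 23 alternative settings the list median lay between -0.81 and -0.27, the latter without F3R. The core ACGTG was in 12 of 21 windows of the list (57.1%, against 16.6% of all windows).

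**Figure D3:**
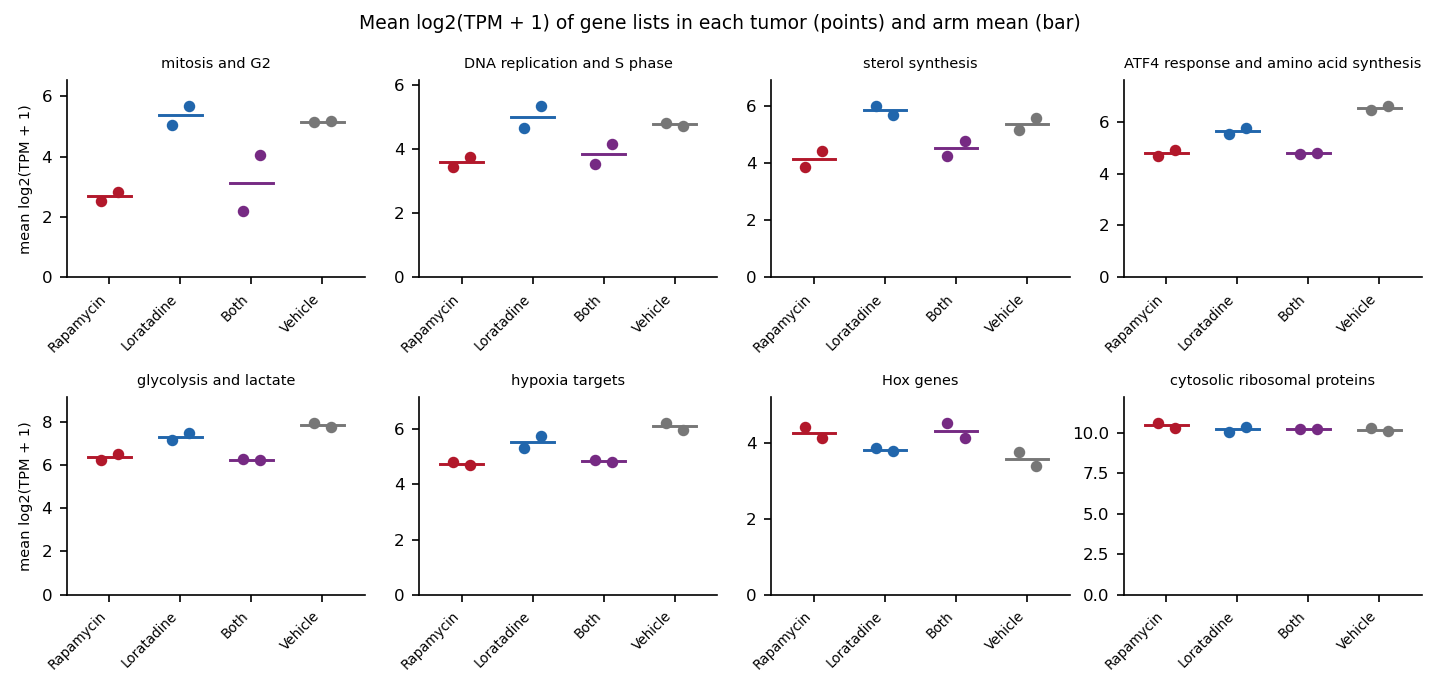
Mean log2(TPM + 1) over the tested members of 8 gene lists, with a point for each tumor and a bar for the mean of its arm (2 tumors per arm, axes from 0). For mitosis the loratadine tumors (5.04 and 5.68) sit beside the vehicle tumors (5.13 and 5.18), for sterol synthesis they are above them, and for ATF4 targets (5.52 and 5.75) they lie between the rapamycin tumors (4.67 and 4.90) and the vehicle tumors (6.47 and 6.62).

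Lysosomes are both a platform on which mTORC1 is activated and a target of the factors TFEB and TFE3 that it restrains. Of 17 subunits of the vacuolar ATPase, the proton pump of the lysosome, 8 were lower at an unadjusted p under 0.05 and 0 higher (median -0.63). At an adjusted p under 0.1, 2 were lower. Over all genes, 10.4% and 0.881% were lower at these thresholds. Atp6v1a, its catalytic subunit, was at 58.0 and 55.6 TPM with rapamycin and at 128 and 108 TPM with loratadine (log2 fold change -1.04, standard error 0.16, limma adjusted p = 0.0937), and Atp6v1h had a log2 fold change of -1.0 (limma adjusted p = 0.0958). The more abundant Atp6v1g1 was at 242 and 231 TPM with rapamycin and at 392 and 380 TPM with loratadine (log2 fold change -0.70, limma adjusted p = 0.107), and Atp6v0c was at 348 and 468 TPM with rapamycin and at 528 and 459 TPM with loratadine (limma adjusted p = 0.561). Lysosomal enzymes and membrane proteins split instead: of 31, 6 were lower and 1 higher at an unadjusted p under 0.05, with a median of -0.19. Over all genes, 10.4% were lower and 8.33% higher at that p. Gla, alpha-galactosidase A, was at 14.7 and 11.4 TPM with rapamycin and at 39.5 and 34.7 TPM with loratadine (log2 fold change -1.45, standard error 0.20, limma adjusted p = 0.0747). Ctsf, cathepsin F, was at 22.4 and 26.9 TPM with rapamycin, at 9.50 and 9.18 TPM with loratadine and at 4.47 and 5.06 TPM with vehicle (log2 fold change 1.30, standard error 0.24, limma adjusted p = 0.0969). Tfe3 was at 32.3 and 32.1 TPM with rapamycin and at 32.3 and 32.7 TPM with loratadine. Gpnmb, a membrane glycoprotein used as a marker of LAM cells, was at 49.0 and 33.7 TPM with rapamycin and at 333 and 122 TPM with loratadine (log2 fold change -2.28, standard error 0.51, limma adjusted p = 0.113). It had the lowest fold change of the 9 LAM markers tested. Of these 9, 1 was higher and 1 lower at an unadjusted p under 0.05 (against 8.33% and 10.4% of all genes). Their median was -0.21, and it turned sign with the side term. The E-box CACGTG, which contains the hypoxia core, was in 11 of 32 windows of the lysosomal list (34.4%, against 6.02% of all windows).

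Ribosomal protein genes, whose messages are translated under mTORC1 control, did not lie lower. Of 32, 1 was higher and 0 lower at an unadjusted p under 0.05 (against 8.33% and 10.4% of all genes), with a median of 0.23. Rps15, which was that one, was at 4570 and 2990 TPM with rapamycin and at 2080 and 2280 TPM with loratadine (log2 fold change 0.76, limma adjusted p = 0.201). Rps6, the ribosomal protein phosphorylated downstream of mTORC1, was at 1070 TPM in both rapamycin tumors and at 915 and 1200 TPM in the loratadine tumors (log2 fold change 0.03, limma adjusted p = 0.957). Among initiation factors, 8 of 20 were lower and 1 higher at an unadjusted p under 0.05 (against 10.4% and 8.33% of all genes). Eif2s1, the alpha subunit of eIF2, was at 38.3 and 30.7 TPM with rapamycin and at 110 and 99.1 TPM with loratadine (log2 fold change -1.58, standard error 0.23, limma adjusted p = 0.0747). Eif4ebp1, a translation repressor that mTORC1 phosphorylates, was at 95.1 and 162 TPM with rapamycin and at 214 and 333 TPM with loratadine (log2 fold change -1.10, limma adjusted p = 0.138). Of 19 subunits and partners of mTOR and the TSC complex, 3 were lower and 1 higher at an unadjusted p under 0.05. These counts lay near the shares over all genes (10.4% and 8.33%). The higher one was Deptor, an inhibitor of mTOR, at 27.8 and 12 TPM with rapamycin and at 5.09 and 2.81 TPM with loratadine (log2 fold change 2.0, limma adjusted p = 0.121). Fkbp1a was at 174 and 257 TPM with rapamycin and at 278 and 304 TPM with loratadine (limma adjusted p = 0.294).

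Glutathione transferases lay on both sides. Gsta1 was at 2.25 and 1.94 TPM with rapamycin, at 16.3 and 13.5 TPM with loratadine and at 32.0 and 73.5 TPM with vehicle (log2 fold change -2.36, standard error 0.39, limma adjusted p = 0.0958). Gsta3 of the same family had the opposite order, at 157 and 160 TPM with rapamycin, 46.1 and 57.6 TPM with loratadine and 34.0 and 20.6 TPM with vehicle (log2 fold change 1.6, standard error 0.29, limma adjusted p = 0.0958). Both belong to the alpha class of transferases, and how reads were split between related members was not tested. Over the 20 NRF2 targets and transferases, 9 were lower and 2 higher at an unadjusted p under 0.05 (against 10.4% and 8.33% of all genes). Their median was -0.42. Hmox1, heme oxygenase 1 and a target of NRF2, was at 212 and 52.8 TPM with rapamycin and at 317 and 331 TPM with loratadine (limma adjusted p = 0.209).

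Of the enzymes and receptors of histamine, the pathway that loratadine acts on, 10 of 15 passed the filter on low values, and Hrh1, the receptor it blocks, did not. Hrh1 was listed at 0.336 and 0.63 TPM with rapamycin and at 0.598 and 0.624 TPM with loratadine. Beside Aoc1, Hdc, which makes histamine from histidine, was at 5.60 and 3.93 TPM with rapamycin and at 0.955 and 1.56 TPM with loratadine (log2 fold change 1.35, standard error 0.36, limma adjusted p = 0.132). The monoamine oxidase Maoa was at 33.5 and 16.4 TPM with rapamycin and at 59.5 and 64.3 TPM with loratadine (log2 fold change -1.36, limma adjusted p = 0.248). Maob was at 0.442 and 17.7 TPM with rapamycin and at 8.12 and 31.9 TPM with loratadine, so on the log2 scale it varied within each arm more than between them (limma adjusted p = 0.44). Hnmt, which methylates histamine, was at 0.708 and 0.769 TPM with rapamycin and at 1.96 and 0.984 TPM with loratadine (limma adjusted p = 0.503).

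Genes that lay higher with rapamycin came from several groups. Inmt, a methyltransferase of indoleamines, was at 117 and 79.7 TPM with rapamycin and at 6.49 and 2.55 TPM with loratadine (log2 fold change 4.24, standard error 0.69, limma adjusted p = 0.0958). Mylk, myosin light chain kinase, was at 107 and 79.8 TPM with rapamycin and at 10.7 and 15.3 TPM with loratadine (log2 fold change 2.76, standard error 0.39, limma adjusted p = 0.0747), although the 13 smooth muscle genes tested had a median of 0.32 and only Des beside Mylk had an unadjusted p under 0.05. Acta2, smooth muscle actin, was at 114 and 55.3 TPM with rapamycin and at 92.0 and 92.7 TPM with loratadine (limma adjusted p = 0.774). Vcam1, an adhesion molecule, was at 92.7 and 113 TPM with rapamycin and at 30.1 and 26.2 TPM with loratadine (log2 fold change 1.83, limma adjusted p = 0.0747). Fmod, a small proteoglycan that binds collagen, was at 12.7 and 13.0 TPM with rapamycin and at 1.80 and 1.86 TPM with loratadine (log2 fold change 2.29, limma adjusted p = 0.0958). The collagen matrix list it belongs to had a median of -0.41. Of its 20 genes, 2 were higher and 4 lower at an unadjusted p under 0.05 (against 8.33% and 10.4% of all genes).

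Of 18 acute phase and secreted defence genes, 8 were higher and 1 lower at an unadjusted p under 0.05 (against 8.33% and 10.4% of all genes). Their median was 0.72. Cfb, complement factor B, was at 93.9 and 173 TPM with rapamycin and at 34.2 and 25.5 TPM with loratadine (log2 fold change 2.07, standard error 0.32, limma adjusted p = 0.0937). C3, the central complement protein, was at 3170 and 1300 TPM with rapamycin and at 565 and 116 TPM with loratadine (log2 fold change 2.98, limma adjusted p = 0.159). Lcn2, an iron-binding protein, was at 315 and 2690 TPM with rapamycin and at 462 and 868 TPM with loratadine, with the 2 rapamycin tumors on either side of the loratadine tumors. The one lower was Hp, haptoglobin, which fat tissue also makes, at 20.3 and 6.04 TPM with rapamycin and at 110 and 94.3 TPM with loratadine (limma adjusted p = 0.148).

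Hox genes, which keep the positional identity of a tissue, were higher at an unadjusted p under 0.05 in 8 of 28 (against 8.33% of all genes). They were lower in 0, with 0 at an adjusted p under 0.1 and a median of 0.51. In 19 of the 28 both rapamycin tumors were above both loratadine tumors, against 24.4% of all genes. Hoxb4 was at 45.4 and 38 TPM with rapamycin and at 24.3 and 14.5 TPM with loratadine (log2 fold change 1.10, limma adjusted p = 0.165), and Hoxd3 had a log2 fold change of 1.20 (limma adjusted p = 0.154). The arms overlapped in Hoxb9, the most abundant member, at 110 and 112 TPM with rapamycin and at 89.8 and 111 TPM with loratadine (limma adjusted p = 0.694). With the side term the median was 0.06 and 0 had an unadjusted p under 0.05 (against 350 of 15095 genes). Over the 23 alternative settings the median lay between 0.06 and 0.59.

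Renal tubule genes, of interest because the line comes from a kidney tumor, were higher in 5 and lower in 1 of 13 tested at an unadjusted p under 0.05 (median 0.52). Over all genes, 8.33% were higher and 10.4% lower at that p. Pax8, a lineage factor of the kidney, was at 62.8 and 52.4 TPM with rapamycin and at 23.9 and 32.2 TPM with loratadine (log2 fold change 1.02, limma adjusted p = 0.114). Fxyd2, a regulator of the sodium pump, was at 864 and 349 TPM with rapamycin and at 127 and 47.6 TPM with loratadine (log2 fold change 2.80, limma adjusted p = 0.132). Of 11 mammary epithelial markers, by which the labelled tissue was checked, 6 passed the filter on low values. Their summed level was 186 and 251 TPM with rapamycin and 241 and 507 TPM with loratadine. Most of it was Krt18, a keratin of simple epithelia in general, at 176 and 240 TPM with rapamycin and at 224 and 475 TPM with loratadine. Among milk proteins, Wap was at 0 TPM in every tumor, and Csn2, Csn1s1 and Lalba did not pass the filter. Csn3, a casein, was at 3.63 and 0.692 TPM with rapamycin, at 11.7 and 9.87 TPM with loratadine and at 174 and 1.53 TPM with vehicle, so the vehicle tumor B1L alone was high.

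Markers of other cell types also differed between the 4 tumors. In bulk RNA, fewer cells of a type and less RNA per cell cannot be told apart. Of 16 markers of blood endothelium, 11 were lower with rapamycin at an unadjusted p under 0.05 (against 10.4% of all genes) and 0 higher. At an adjusted p under 0.1 there were 0, and the median was -0.89. Cdh5, the cadherin of endothelial junctions, was at 3.81 and 2.90 TPM with rapamycin and at 8.80 and 15.4 TPM with loratadine (log2 fold change -1.55, limma adjusted p = 0.121). Plvap, a protein of fenestrated vessels, was at 9.08 and 14.8 TPM with rapamycin and at 24.3 and 24.8 TPM with loratadine (log2 fold change -1.02, limma adjusted p = 0.162). Pecam1 was at 11.8 and 17.5 TPM with rapamycin and at 17.8 and 21.8 TPM with loratadine (limma adjusted p = 0.417). With the side term 0 of the 16 had an unadjusted p under 0.05 (against 350 of 15095 genes). Over the 23 alternative settings the median lay between -1.13 and -0.60.

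T cell markers were higher with rapamycin in 7 of 14 at an unadjusted p under 0.05 (against 8.33% of all genes) and lower in 0. Their median was 0.97. The signaling kinase Lck was at 8.74 and 15.9 TPM with rapamycin and at 4.86 and 3.39 TPM with loratadine (log2 fold change 1.34, limma adjusted p = 0.137), and Cd3g, a chain of the T cell receptor complex, was at 8.47 and 29.8 TPM with rapamycin and at 6.88 and 4.61 TPM with loratadine (limma adjusted p = 0.243). G3L was the highest tumor, and without it the median was 0.46. Over the 23 alternative settings the median lay between 0.46 and 1.54. With the side term 0 of 14 were higher at an unadjusted p under 0.05, and with the adipocyte term 1 was. Over all 15095 genes, 350 and 3212 were at that p with these terms, in either direction. Markers of mast cells, the classic histamine store, had the largest positive median of the 58 lists, 1.32. All 12 were higher with rapamycin, 3 at an unadjusted p under 0.05 (against 8.33% of all genes) and 0 at an adjusted p under 0.1. In 6 the arms did not overlap, against 24.4% of all genes with both rapamycin tumors higher. Their mean log2(TPM + 1) was 2.66 in D1L and 4.70 in G3L with rapamycin and 2.45 and 2.25 with loratadine, so both rapamycin tumors lay above both loratadine tumors, D1L by little. Without G3L the median was 0.07, with 6 of 12 higher, and without D1L it was 2.68. With the side term 0 of 12 had an unadjusted p under 0.05 (against 350 of 15095 genes). Tpsb2, a mast cell tryptase, was at 20.4 and 240 TPM with rapamycin and at 25.8 and 18.3 TPM with loratadine, where G3L alone was high. Hdc, given above with the histamine genes, is also one of these 12 markers and had the smallest p among them. It is counted in the 3 and in the 6 above, so the lists are not independent there. Hdc did not follow the pattern of Tpsb2 (5.60 TPM in D1L and 3.93 TPM in G3L).

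**Figure D4:**
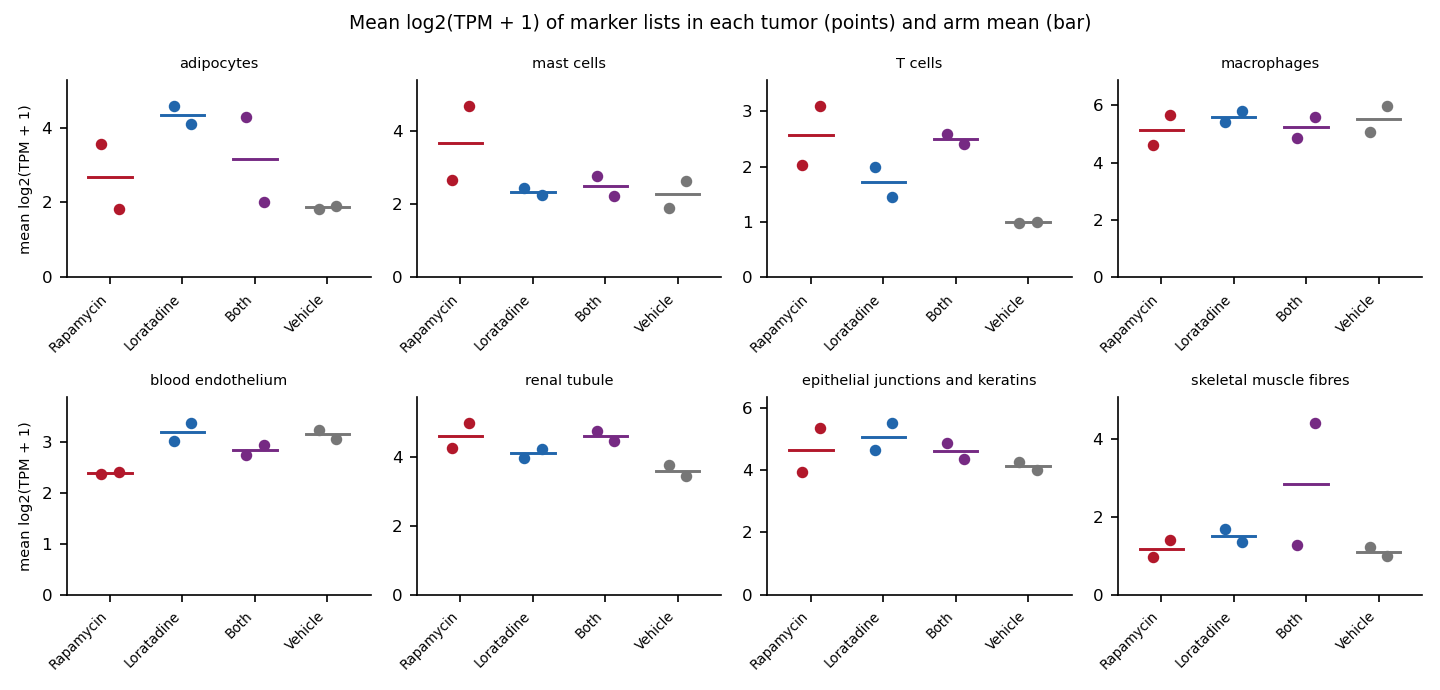
Mean log2(TPM + 1) over the tested members of 8 marker lists, with a point for each tumor and a bar for the mean of its arm (2 tumors per arm, axes from 0). The rapamycin tumors differ from each other in adipocyte markers (3.57 and 1.82) and mast cell markers (2.66 and 4.70), and both lie below the loratadine tumors in blood endothelium (2.36 and 2.41 against 3.01 and 3.36).

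Adipocyte markers were lowest in G3L among the 4 tumors. Their mean log2(TPM + 1) was 3.57 in D1L and 1.82 in G3L with rapamycin, and 4.58 in B3R and 4.10 in F3R with loratadine. Of 16 markers, 3 were lower at an unadjusted p under 0.05 (against 10.4% of all genes) and 0 higher. Fabp4, a fatty acid carrier, was at 60.2 and 4.64 TPM with rapamycin and at 260 and 221 TPM with loratadine (log2 fold change -3.69, standard error 1.70, limma adjusted p = 0.299), and the adipokine Cfd was at 81.3 and 0.871 TPM with rapamycin and at 330 and 162 TPM with loratadine (limma adjusted p = 0.363). The part of fat tissue in the values of fatty acid synthesis, Hp and other genes of fat was not tested gene by gene. With the mean of these markers as a term, 222 genes passed at an adjusted p under 0.05, 54 higher and 168 lower. Of the lists named above, mitosis had 25 of these, replication 10, sterol synthesis 8, ATF4 targets 4 and glycolysis 1, all lower. The marker mean is taken from these same data and differs between the arms compared. Within arms it differs mainly between D1L and G3L and between A3L (4.30) and C1R (2.02). The count with this term therefore does not show what part fat tissue has in the values.

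The 2 rapamycin tumors also differed in some other genes. Epcam, an epithelial adhesion molecule, was at 3.95 and 86.1 TPM with rapamycin and at 26.0 and 62.9 TPM with loratadine (log2 fold change -1.0, limma adjusted p = 0.713). Ltf, lactoferrin, which neutrophils and secretory epithelia make and which stands in the neutrophil list, was at 3.10 and 2720 TPM with rapamycin and at 167 and 300 TPM with loratadine. In neither gene was the difference between arms larger than that within the rapamycin arm. Of the mesenchymal genes the study names, Fn1, fibronectin, was at 498 and 1940 TPM with rapamycin and at 1830 and 2710 TPM with loratadine (limma adjusted p = 0.322). Vim, vimentin, was at 1520 and 1960 TPM with rapamycin and at 2700 and 2980 TPM with loratadine (log2 fold change -0.72, limma adjusted p = 0.227). Snai1 and Twist1, transcription factors of mesenchymal transition, had log2 fold changes of 0.27 and 0.04 (limma adjusted p = 0.756 and 0.953), and Dnm1l, a mitochondrial fission protein, one of -0.41 (limma adjusted p = 0.258). Of 23 genes of epithelial junctions and keratins, 0 had an unadjusted p under 0.05 in either direction with limma.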

How the data were processed

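RNA of 8 tumors was sequenced, 2 per arm. By the study's methods, the authors quantified trimmed single-end reads with Kallisto on mm9 and summed them to genes with tximport. STAR 2.4.0f1, SAMtools 0.1.18 and bedtools stand in the submitters' processing notes, so the tools behind the values are uncertain. The authors deposited TPM in 2 tables, equal to within 5e-07 TPM, of which one served as the main input. The study's count test needs counts and was not used here. TPM keeps no depth, so precision rests on the spread between tumors.

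Groups follow the treatment labels. Genes needed 1 TPM or more in at least 2 of 8 tumors, and their log2(TPM + 1) was fitted with limma 3.58.1 in R 4.3.3 (4 group means, empirical Bayes with a trend on intensity, two-sided tests, Benjamini-Hochberg adjusted p under 0.05). The fit was tested on simulated data. With 2 tumors per arm, p-values set the difference between the arms against a spread pooled over all 4 arms and moderated across genes. Of the identifiers, 25388 are in the NCBIM37 annotation used for coordinates. Names that were empty or turned into numbers (60) were restored by identifier where possible. 

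Genes were named by rule: up to 10 per direction past the threshold with non-overlapping arms and a higher arm averaging 5 TPM or more, and, since under 5 passed, those 5 of each direction whose p was smallest, without predicted genes. To these come up to 2 of the most abundant members of each of 58 gene lists (1034 genes, 933 tested), of which the text describes the lists with the clearest shifts and those of the study, and the genes the study names. One gene that the rule named is not reported here. The members and lists were chosen with earlier results of these data known. Motifs were searched in 250 bases before each RefSeq gene start. Python 3.11.15 and matplotlib 3.10.9 drew the figures. The alternatives were other pseudocounts (0.1 and 0.5), filters, scalings, variance settings, models and thresholds, and each library left out.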

Additional observations from a re-analysis of the deposited data

How the results depend on the processing

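The count of 0 genes (limma, adjusted p under 0.05) became 2 with a pseudocount of 0.1 (both lower with rapamycin), 16 with no filter (7 higher and 9 lower), 1 with tumor side in the model (lower) and 222 with the mean adipocyte marker level in it (54 higher and 168 lower). The threshold of 0.1 gave 168 (35 higher and 133 lower). Leaving out each library gave between 0 and 31 genes in all, between 0 and 6 higher and between 0 and 25 lower. The highest count came without A3L. Leaving out A3L or C1R changes only the estimate of spread and not the fold changes, so that count describes no property of A3L. The remaining alternatives gave 0. At an adjusted p under 0.1 the count of 168 became 0 with array weights, with only the 4 tumors compared, or without B3R, B1L or F5L, and 1 with the side term or without F3R. It was 3 without D1L, 479 without G3L, 277 without A3L or C1R, 394 when genes had to average 5 TPM or more, 396 with the additive model, and 898 with the adipocyte term. It fell to 57 and 69 with pseudocounts of 0.1 and 0.5, 40 with no filter, 54 with quantile normalization and 16 without the intensity trend. All 168 genes kept their direction in each setting that fitted them. For many settings this could not have come out otherwise. The arms of these genes do not overlap, so leaving out a library cannot turn their direction. Settings that alter only the estimate of spread leave the fold changes as they were.

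C1R is the only right-side tumor outside the loratadine arm, so the side term rests on it. The adipocyte term rests mainly on D1L against G3L and on A3L against C1R, and its level differs between the arms compared. The medians of collagen matrix, smooth muscle and epithelial junction genes turned sign under some settings. TPM holds no counts, so what depth allows cannot be given. No paired analysis was possible because the labels give the arms no shared animal, and the 4 tumors come from 4 cages.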
